A study of Rattus norvegicus with 48 samples.

Results

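The serum of ZDF rats treated with an antibody against sclerostin (n = 4) was compared with the serum of placebo-treated WT rats (n = 5), which asks what the circulating miRNA pattern of diabetic rats still had unlike WT under the antibody. The 9 libraries were chosen by their deposited genotype, treatment and tissue labels, out of 32 serum libraries and 48 libraries in all. ZDF rats (Zucker diabetic fatty, fa/fa) are homozygous for a mutation of the leptin receptor and develop type 2 diabetes, and the WT rats are Zucker lean animals (ZDF +/+). Per the study's methods all rats were male, ate a high-fat, high-carbohydrate chow, carried a surgical defect of the femur and were treated for 12 weeks. The antibody was injected on some days of each week and the placebo daily. The 2 groups differ in genotype and in treatment at the same time, and per the methods the animals came from several earlier experiments. Genotype, antibody and experiment therefore cannot be told apart in this comparison. ZDF rats on placebo (n = 5) and WT rats on anti-sclerostin (n = 4) are shown beside it. The study credits its placebo and its anti-sclerostin rats to different earlier publications. Antibody and experiment thus cannot be told apart in any comparison of these treatments either.

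Sclerostin is a protein that osteocytes secrete to block Wnt signaling and bone formation, and antibodies against it are bone-building drugs. Mature miRNAs are short RNAs that guide Argonaute proteins to messenger RNAs, mostly by pairing of their seed, the bases 2 to 8 from the 5′ end. Cells release miRNAs into blood in vesicles and protein complexes or when they are damaged, so that serum holds miRNAs typical of liver, pancreas, muscle, vessels, blood cells and bone. In serum, more release, slower clearance and a smaller amount of all other miRNAs give the same rise in a relative level.

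In total 22 miRNAs passed the threshold used by the study, an FDR under 0.2 (the p of edgeR's quasi-likelihood test after Benjamini-Hochberg adjustment). The 4 tested liver miRNAs and the islet miRNA miR-375-3p were among the 14 that were higher in anti-sclerostin-treated ZDF rats. MiR-199a-3p and miR-199a-5p of mesenchymal cells, the endothelial miR-126a-3p and the smooth muscle miR-143-3p were among the 8 that were lower. Some other miRNAs listed for mesenchymal and endothelial cells went the other way, and no tested smooth muscle miRNA did. Of 8 tested mesenchymal and osteoblast miRNAs 2 had a log2 fold change above 0, of which miR-138-5p was called higher. Of 4 tested endothelial miRNAs 1 was above 0. The 22 calls make up 12.5% of the 176 miRNAs tested, with 7.95% higher and 4.55% lower. None passed FDR < 0.05, and 26 miRNAs had an unadjusted p under 0.05. Scaling by library totals instead of TMM gave 33 calls, 4 higher and 29 lower, as it shifted the median over all tested miRNAs from 0.08 to -0.26 (log2). Scaling by the added extraction controls moved it to -0.39 and gave 0 calls with 20 at an unadjusted p under 0.05. Of the 22, 11 passed with library totals, and among those that did not were miR-375-3p (FDR 0.206), miR-130a-3p (FDR 0.422), miR-320-3p (FDR 0.464) and miR-378a-3p (FDR 0.606). None of the 22 changed direction under these scalings. DESeq2 called 24 at FDR < 0.2 and 16 at FDR < 0.05, among them all 22. The count rested on single rats: it was 0 without treated rat 2 (18 at an unadjusted p under 0.05), 6 without treated rat 3, 5 without WT rat 5, 14 without WT rat 4 and 34 without treated rat 1.

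The sequences of those called miRNAs that the results turn on are shown with the seed in capitals, as RefSeq gives them (assembly GRCr8). Of the 22 called miRNAs 18 matched an entry by name. Both arms are given for miR-122 and miR-199a because both arms were called.
miR-122-5p: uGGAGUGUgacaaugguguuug
miR-122-3p: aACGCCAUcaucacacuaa
miR-192-5p: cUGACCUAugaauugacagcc
miR-375-3p: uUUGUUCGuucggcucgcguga
miR-31a-5p: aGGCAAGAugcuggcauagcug
miR-130a-3p: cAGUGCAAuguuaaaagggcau
miR-199a-3p: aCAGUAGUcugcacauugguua
miR-199a-5p: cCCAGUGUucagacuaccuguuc
miR-27a-5p: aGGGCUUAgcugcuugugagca
miR-10b-5p: cCCUGUAGaaccgaauuugugu
miR-126a-3p: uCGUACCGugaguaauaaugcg
miR-143-3p: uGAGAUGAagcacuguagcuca

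No seed in this list occurs more than 1 time, though the list holds only part of the called miRNAs. MiR-378b had no matching entry, so its seed was not compared with that of miR-378a-3p, and both were called higher. Among the 157 of 176 tested miRNAs that matched an entry, the seed of miR-130a-3p was shared by miR-130b-3p (log2 fold change 1.10, FDR 0.292). MiR-193a-3p, which is described further on, shared its seed with miR-193b-3p (0.66, FDR 0.698). The second member did not pass in either pair. Names that differ by few bases, such as miR-1b and miR-1-3p, miR-378a-3p and miR-378b, or miR-126a and miR-126b, can share reads, and their counts are uncertain to that extent.

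The treated group was uneven in depth. ZDF anti-sclerostin rats 1 and 4 had 28015 and 33591 reads on miRNAs, and rats 2 and 3 had 150605 and 96551. The WT placebo rats ranged from 64957 to 205664. The share of all reads that fell on miRNAs was 0.536% and 0.529% in rats 1 and 4, against 2.28% and 2.96% in rats 2 and 3 and 1.58% to 2.89% in WT. The miRNA reads of the 2 groups did not differ beyond their spread (exact permutation p = 0.198). In a test of read counts between libraries, chi-squared divided by its degrees of freedom was 12.5 for treated rats 2 and 3, 13.1 for rats 1 and 4, and 39.2 to 82.3 for pairs across. WT pairs gave 21.3 to 148, a range that holds the values across, and the measure grows with depth. By their reads the treated sera are called a deep pair and a shallow pair, and the values of both are given throughout.

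A second unevenness lay in the WT group. The log2 ratio of miR-451-5p, the most erythrocyte-specific miRNA, to miR-23a-3p is used as a sign of hemolysis. It was 3.2 and 3.3 in WT rats 3 and 5, from -0.51 to 0.79 in the other WT rats, and from -0.93 to 1.60 in the treated rats (exact permutation p = 0.175). A fit with this ratio as a covariate called 10 miRNAs, 8 of them among the 22. These were miR-375-3p, miR-378a-3p, miR-22-3p, miR-138-5p, miR-199a-3p, miR-10b-5p, miR-27a-5p and miR-150-5p. Among those that no longer passed were the liver miRNAs, miR-130a-3p (1.05, FDR 0.244), miR-126a-3p (-1.01, FDR 0.287) and miR-143-3p (-1.23, FDR 0.287).

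Liver miRNAs were higher in the treated ZDF group as a whole, but in 2 of its 4 rats. MiR-122 is the dominant miRNA of hepatocytes, where it takes part in cholesterol and lipid metabolism. MiR-122-5p stood at 252, 1321, 2149 and 122 CPM (a relative level, the count scaled by the total of miRNA reads after TMM normalization) in treated rats 1 to 4. In WT rats 1 to 5 it was 196, 308, 199.8, 169.6 and 97.7 CPM. Rats 2 and 3 lay above every WT rat, while rats 1 and 4 lay within the WT range. The log2 fold change was 2.31 (standard error 0.65, FDR 0.0786), and an exact permutation test on the levels gave p = 0.159. Its other arm, miR-122-3p, was at 108, 893, 1069.5 and 73.4 CPM in the treated and 92.9, 119, 95.9, 91.3 and 69.8 CPM in the WT rats. The pattern was the same (log2 fold change 2.54, standard error 0.64, FDR 0.0786).

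MiR-802-5p, a liver miRNA linked to insulin resistance in obese animals, was at 108, 1057, 1003 and 196 CPM in treated rats 1 to 4. WT rats 1 to 5 held 176, 89.4, 104, 157 and 41.9 CPM. Rats 2, 3 and 4 lay above the WT range, rat 4 only just, and the log2 fold change was 2.42 (standard error 0.63, FDR 0.0786, exact permutation p = 0.0397). MiR-192-5p, made in liver, gut and kidney, was at 5080.3, 17893, 16855 and 3401 CPM against 5383, 3786, 1119, 3796 and 1019 CPM in WT. Here too only rats 2 and 3 exceeded WT, and the log2 fold change was 1.81 (standard error 0.59, FDR 0.116).

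The low values of the shallow pair rest on few reads. Rats 1 and 4 each had 3 reads of miR-122-3p, for which an exact 95% Poisson interval reaches from 22.3 to 316 CPM in rat 1 and from 15.1 to 215 CPM in rat 4. These intervals cover counting error only. Their upper ends are below the levels of rats 2 and 3, so the difference within the treated group is larger than counting error. Without both shallow sera the log2 fold change of miR-122-5p was 3.11 (FDR 0.00128), and without both deep sera it was -0.20 (FDR 0.938). MiR-802-5p gave 3.15 (FDR 0.00129) and 0.39 (FDR 0.852), and miR-192-5p 2.52 (FDR 0.00812) and 0.36 (FDR 0.834). Both settings were chosen after seeing the data, and each leaves 2 treated rats, so that the result for liver miRNAs depends on which rats are counted.

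Of the 8 liver miRNAs listed, all had reads, 4 were tested and all 4 were called higher, with a median log2 fold change of 2.36 beside 0.08 over all tested miRNAs. Over all tested miRNAs 7.95% were called higher. MiR-122-5p and miR-122-3p are arms of the same hairpin. All 4 were named by the study for placebo ZDF against WT, on WT sera used again here, so their count is not independent evidence. Among the listed liver miRNAs too rare to test, miR-192-3p had 2 to 25 reads in treated and at most 2 in WT libraries, and miR-802-3p 0 to 11 against at most 1. With the hemolysis ratio as a covariate none of the 4 passed, at 1.40 for miR-122-5p (FDR 0.459), 1.72 for miR-122-3p (FDR 0.376), 1.40 for miR-802-5p (FDR 0.425) and 0.91 for miR-192-5p (FDR 0.376). The summed level of the list was 5657, 21399, 21401 and 3866 CPM in the treated and 1243 to 5867 CPM in the WT rats.

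**Figure D1:**
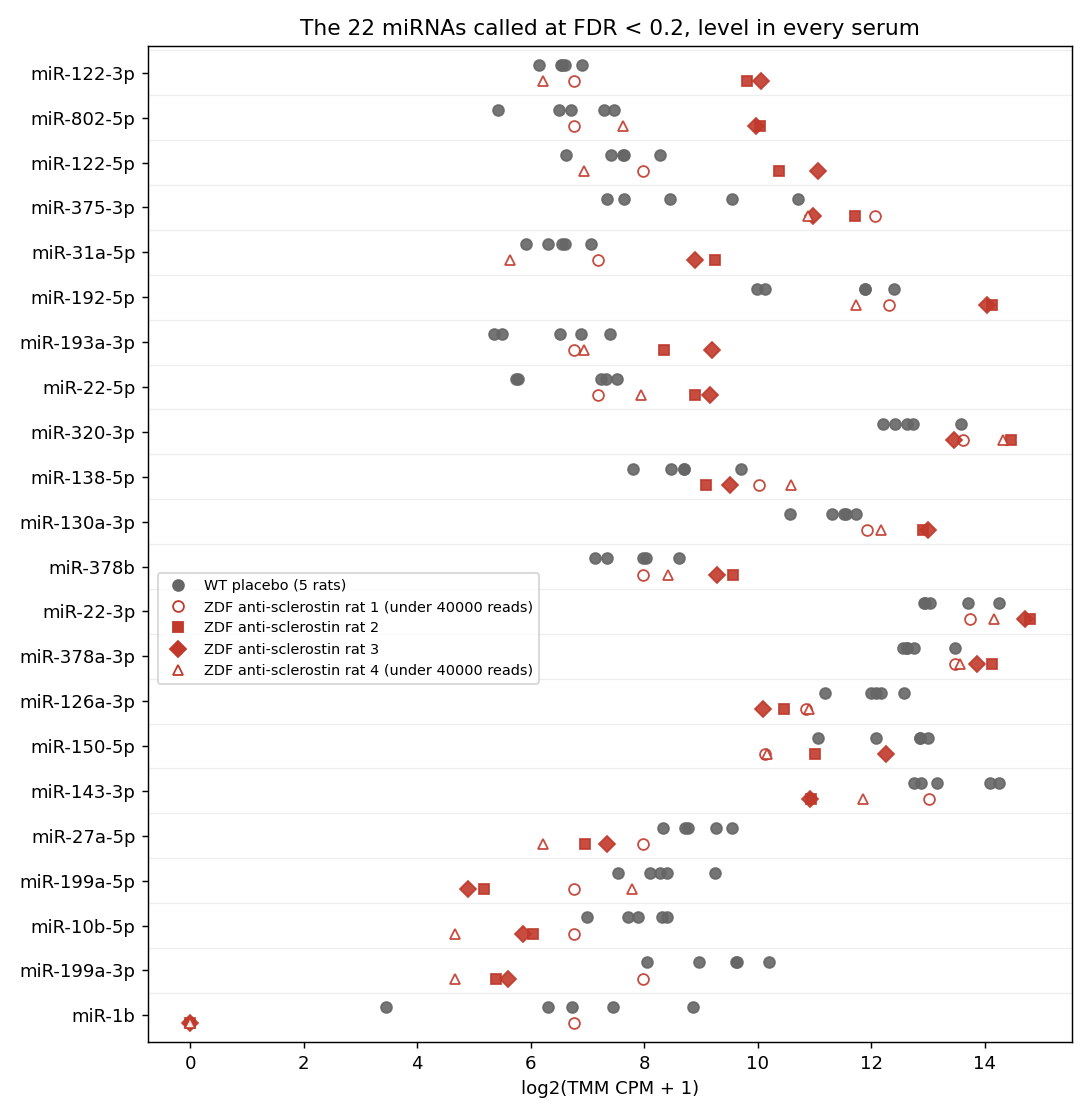
Level of each of the 22 called miRNAs in every serum, as log2(TMM CPM + 1) on the horizontal axis, with WT placebo rats as grey points and ZDF anti-sclerostin rats as red symbols, open for the rats with under 40000 miRNA reads. The liver miRNAs of treated rats 2 and 3 lie far to the right of WT while the open symbols lie among the WT points or, for miR-802-5p of rat 4, just above them (196 against at most 176 CPM), whereas for miR-375-3p, miR-130a-3p, miR-126a-3p, miR-27a-5p, miR-10b-5p and miR-199a-3p all 4 treated rats lie on one side.

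MiR-375-3p was the called miRNA of the pancreas, where beta cells use it to control insulin secretion. It stood at 4288, 3341, 2015 and 1884 CPM in treated rats 1 to 4 and at 1672, 348, 199.8, 744 and 161 CPM in WT rats 1 to 5. Every treated rat lay above every WT rat, in the shallow as in the deep pair, with 77 reads or more behind each treated value. The log2 fold change was 2.27 (standard error 0.64, 95% confidence interval 0.88 to 3.65, FDR 0.0786, exact permutation p = 0.0159). Without the shallow pair it was 2.12, and without the deep pair 2.14 with an FDR of 0.304. Of 12 listed pancreatic miRNAs 7 had reads and 2 were tested. The other was miR-7a-1-3p with a log2 fold change of 0.20 (FDR 0.876). The acinar miRNAs were near absent, with at most 1 read of miR-216a-5p and at most 3 of miR-217-5p in any treated library, against up to 18 of miR-217-5p in WT.

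MiR-31a-5p, an epithelial miRNA also studied for bone fragility, was at 144, 605, 477 and 48.9 CPM in treated and 92.9, 59.6, 95.9, 78.3 and 133 CPM in WT rats. The deep pair was high again, rat 1 lay just above WT, and rat 4 lay below all WT rats on 2 reads. Its log2 fold change was 1.84 (standard error 0.57, FDR 0.0963), and -0.13 without the deep pair. Of the 6 tested epithelial miRNAs it was the only one called.

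MiR-130a-3p, which represses regulators of adipocyte and vessel formation, separated the groups fully. Treated rats 1 to 4 were at 3891, 7752, 8155 and 4601 CPM and WT rats 1 to 5 at 3393, 2922, 3028, 1513 and 2541 CPM. The lowest treated rat was above the highest WT rat, though by less than the spread within either group. The log2 fold change was 1.25 (standard error 0.34, FDR 0.0786, exact permutation p = 0.00794, the smallest that 4 rats against 5 allow). MiR-320-3p was at 12538, 22497, 11288 and 20507 CPM against 12209, 4760.0, 6337, 5492 and 6842 CPM. Only WT rat 1 reached the treated range, treated rat 3 being the one inside the WT range, and the log2 fold change was 1.34 (standard error 0.38, FDR 0.0786). Placebo ZDF rats ranged from 8705 to 17462 CPM of miR-320-3p and WT rats on the antibody from 9282 to 14602 CPM, both overlapping the treated ZDF rats.

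Both arms of miR-22, a miRNA of muscle and adipose tissue among others, were called. MiR-22-3p was at 13692, 28681, 26911 and 18476 CPM in treated and 7823, 8357, 19497, 7918 and 13433 CPM in WT rats (log2 fold change 1.03, standard error 0.35, FDR 0.137). The rarer miR-22-5p was at 144, 476, 573 and 245 CPM against 53.8, 149, 159.8, 52.2 and 182 CPM (log2 fold change 1.66, standard error 0.52, FDR 0.0988). In both arms rats 2 and 3 were the highest of the 9 and WT rats 3 and 5 the highest of their group. MiR-378a-3p, encoded within a coactivator gene of energy metabolism, was at 11422, 17981, 14878 and 12064 CPM in treated rats. In WT it was at 6033, 6379.8, 11458, 6887 and 6325 CPM, so that only WT rat 3 reached the lowest treated rat (log2 fold change 1.01, standard error 0.30, FDR 0.0871). MiR-378b, named after its values were seen, was at 252, 752, 621 and 343 CPM, with WT rats 1, 2, 4 and 5 at 139 to 261 CPM and WT rat 3 above treated rat 4 (log2 fold change 1.12, FDR 0.179).

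MiR-193a-3p was at 108, 323, 583 and 122 CPM in treated and 44, 39.7, 168, 117 and 90.8 CPM in WT rats. Again the deep pair alone exceeded WT (log2 fold change 1.73, standard error 0.57, FDR 0.116). MiR-138-5p, a miRNA that restrains osteoblast differentiation, was higher in the shallow than in the deep pair. Treated rats 1 and 4 had 1045 and 1542 CPM and rats 2 and 3 had 546 and 726 CPM, against 416, 417, 839, 222 and 356 CPM in WT. Without the shallow pair the log2 fold change went from 1.26 (standard error 0.47, FDR 0.176) to 0.41 (FDR 0.617).

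MiR-199a-3p, a miRNA of fibroblasts and other mesenchymal cells, was the call with the smallest p. It was at 252, 41.1, 47.7 and 24.5 CPM in treated rats 1 to 4 and at 264, 497, 783, 796 and 1173 CPM in WT rats 1 to 5. All treated rats lay below all WT rats, although rat 1 came close to the lowest of them. The treated libraries held 1 to 7 reads and the WT libraries 50 to 168. The log2 fold change was -3.16 (standard error 0.73, 95% confidence interval -4.73 to -1.59, FDR 0.0786, exact permutation p = 0.00794). The other arm, miR-199a-5p, was at 108, 35.2, 28.6 and 220.2 CPM against 186, 308, 607, 339 and 272 CPM (log2 fold change -1.82, standard error 0.69, FDR 0.179). Rats 1, 2 and 3 lay below WT and rat 4 within its range.

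MiR-27a-5p, the minor arm of a miRNA that sits beside miR-23a and miR-24-2 in the genome, was at 252, 123, 162 and 73.4 CPM in treated rats. WT rats 1 to 5 held 743, 437, 319.6, 613 and 419 CPM, without overlap (log2 fold change -1.73, standard error 0.48, FDR 0.0786, exact permutation p = 0.00794). The major arm of the same hairpin did not move with it: miR-27a-3p had a log2 fold change of 0.05 (FDR 0.968). In the miR-23, miR-27 and miR-24 clusters miR-27a-5p was the only call among 7 tested members. MiR-10b-5p, which lies in a Hox gene cluster, was at 108, 64.6, 57.3 and 24.5 CPM against 337, 318, 208, 235 and 126 CPM, again without overlap. Its treated values rest on 1 to 11 reads (log2 fold change -1.95, standard error 0.53, FDR 0.0786).

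MiR-126a-3p, the miRNA of endothelial cells that supports VEGF signaling and is also carried by platelets, was at 1838, 1403, 1089 and 1909 CPM in treated rats 1 to 4. WT rats 1 to 5 were at 4092, 2315, 4339, 4644 and 6130.0 CPM. No treated rat reached a WT rat, and the log2 fold change was -1.36 (standard error 0.40, FDR 0.0788, exact permutation p = 0.0159). The other arm, miR-126a-5p, did not pass (log2 fold change -1.02, FDR 0.223), and miR-221-3p and miR-222-3p were at 0.31 and -0.16. MiR-143-3p, which keeps smooth muscle cells contractile, was at 8287, 1973, 1948 and 3719.6 CPM against 19553, 7542, 17515, 9131 and 6877 CPM. Rats 2, 3 and 4 lay below WT (log2 fold change -1.46, standard error 0.53, FDR 0.168). MiR-145-5p, its neighbor in the same cluster, was not called and is described below. MiR-150-5p of mature lymphocytes was at 1117, 2049, 4879.8 and 1150.1 CPM in treated and 7471, 7423, 2125, 8179 and 4329 CPM in WT rats (log2 fold change -1.38, standard error 0.53, FDR 0.179). Its lowest values were those of the shallow pair.

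MiR-1b, a miRNA of striated muscle, was counted at 3, 0, 0 and 0 reads in treated and 16, 1, 58, 8 and 25 reads in WT libraries. Over the pooled reads of each group the WT level was 17.9 times the treated one (exact 95% interval 5.97 to 88.2, counting error only), and FDR was 0.179. Without WT rat 3, which held 58 of the 108 WT reads, the ratio was 10.3, and all treated reads came from rat 1. Among the 5 fits without a single rat in which it was tested, miR-1b passed in 2 (log2 fold change -7.33 to -2.76 over the 5), and with the miR-451-5p ratio as a covariate it did not (-1.53, FDR 0.587). WT rats 3 and 5, which had the most reads, are the rats with the high miR-451-5p ratio. A pair of further miRNAs too rare to test had a read in every WT and in no treated library. They were miR-125b-1-3p with 1, 1, 7, 1 and 2 reads, and miR-450b-5p with 1 read in each WT rat. A count of 0 in the 308762 reads of the treated rats allows up to 9.72 CPM, so that the depth does not show a difference for miR-450b-5p, at 8.06 CPM over the pooled WT reads. MiR-125b-1-3p, at 19.3 CPM over 12 pooled WT reads, was at least 1.99-fold higher in WT than this limit over the pooled treated reads, counting error aside. Without WT rat 3, which held 7 of these reads, it was at 9.97 CPM and 1.03 times the limit, so that this bound rests on 1 rat.

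Of the 22 called miRNAs 6 had groups without overlap in CPM, of which 2 were higher and 4 lower. Over all tested miRNAs the share without overlap was 3.98%, or 7 miRNAs. The seventh, miR-148a-3p, was not called. It was at 3135, 3059.5, 2282 and 1444 CPM in treated and 6048, 3816, 4331, 3874 and 3344 CPM in WT rats (log2 fold change -0.73, FDR 0.311).

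Among the 14 miRNAs called higher, treated rat 2 lay above the WT range for 13 and rat 3 for 12, but rat 1 for 5 and rat 4 for 7. Among the 8 called lower, rat 1 lay below the WT range for 6, rat 2 for 8, and rats 3 and 4 for 7 each. Of the first group, miR-375-3p lay above WT in all 4 rats, miR-320-3p in rats 1, 2 and 4, and miR-138-5p in the shallow pair alone.

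**Figure D2:**
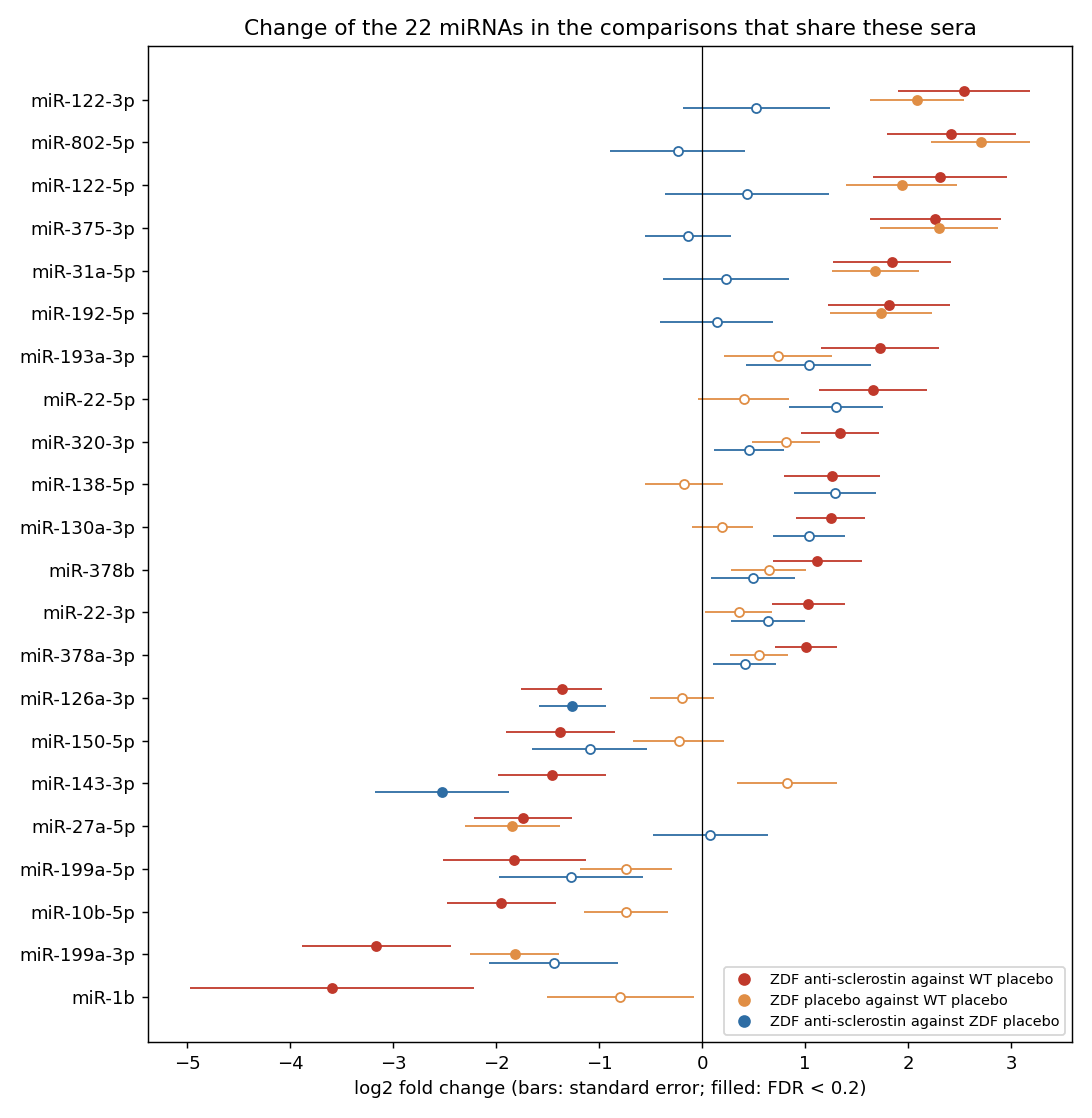
Log2 fold change of each called miRNA in 3 comparisons that share sera, with bars for the standard error and filled points for FDR < 0.2. Red points compare ZDF anti-sclerostin with WT placebo, orange points ZDF placebo with WT placebo, and blue points ZDF anti-sclerostin with ZDF placebo; the red and orange points of miR-375-3p lie together at 2.27 and 2.30 and its blue point at -0.14.

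The placebo-treated ZDF rats show where the treated ones stood relative to their own genotype. These comparisons share sera with the main one, so their values are given side by side and are not independent. Placebo ZDF sera differed from placebo WT sera in 6.1% of 164 tested miRNAs, 7 higher and 3 lower. Anti-sclerostin-treated and placebo-treated ZDF sera differed in 1.27% of 158, which were miR-126a-3p and miR-143-3p, both lower in the treated rats. DESeq2 called 11 in the latter comparison, in which antibody and experiment cannot be told apart.

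MiR-375-3p was at 5795, 3909, 1798, 3454 and 1709.6 CPM in placebo ZDF rats, a log2 fold change of 2.30 against WT (FDR 0.0262). Against these rats the treated ones differed by -0.14 (95% confidence interval -1.04 to 0.76), an interval that holds both a fall and a rise. MiR-27a-5p was at 249, 161, 208, 71.7 and 34.9 CPM in placebo ZDF rats, -1.84 against WT (FDR 0.0262), and the treated rats differed from them by 0.08 (95% confidence interval -1.13 to 1.28). For both miRNAs the treated rats were on the placebo ZDF side of WT. MiR-199a-3p was at 363, 107, 201, 229 and 157 CPM in placebo ZDF rats, -1.82 against WT (FDR 0.0262), and the treated rats stood a further 1.44 lower (95% confidence interval -2.79 to -0.08) without passing (FDR 0.440). In WT rats on the antibody miR-199a-3p was at 27.1, 151, 442 and 88.7 CPM. Of these, only the rat at 442 CPM lay within the WT placebo range. Their log2 fold change against placebo WT rats was -2.03 (FDR 0.245).

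Liver miRNAs were spread in the placebo ZDF group as well. MiR-122-5p was at 861, 53.7, 728, 1218 and 1169 CPM there, and miR-802-5p at 995, 193, 765, 817 and 1256 CPM. Placebo ZDF rat 2 lay below the WT range for miR-122-5p and just above it for miR-802-5p, and the other 4 lay above WT for both. The differences between treated and placebo ZDF rats were 0.44 (95% confidence interval -1.29 to 2.16) for miR-122-5p and -0.24 (-1.65 to 1.18) for miR-802-5p. For miR-192-5p the difference was 0.14 (-1.05 to 1.34).

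For miR-130a-3p, miR-126a-3p and miR-138-5p the placebo ZDF rats were closer to WT than the treated ones. MiR-130a-3p was at 2869, 3275, 3789.9, 2450.5 and 3576 CPM in placebo ZDF rats (0.20 against WT, FDR 0.866). Treated rats were 1.04 higher than these (95% confidence interval 0.29 to 1.79, FDR 0.240). MiR-126a-3p was at 4208, 4092, 5024, 3181 and 3018 CPM in placebo ZDF rats, -0.19 against WT (FDR 0.875), and it fell by 1.26 in treated against placebo ZDF rats (FDR 0.150). All 4 treated rats were below both placebo groups. MiR-138-5p was at 287, 569, 438, 272 and 454 CPM in placebo ZDF rats (-0.18 against WT, FDR 0.925), with 1.29 between treated and placebo ZDF rats (FDR 0.240). MiR-143-3p ranged widely in placebo ZDF rats, at 58352, 8441, 22643, 8025 and 15909.5 CPM, with 2 of the 5 above the WT range (0.83 against WT, FDR 0.486). It fell by 2.53 in treated against placebo ZDF rats (FDR 0.150). WT rats on the antibody were at 4680, 3567, 5049 and 3229 CPM for miR-130a-3p, above the WT placebo range except for rat 4. For miR-143-3p they were at 4099, 4772, 4996 and 7115 CPM, below the WT placebo range except for rat 4. For miR-138-5p they were at 514, 553, 663 and 834 CPM, all within the WT placebo range.

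Of the 12 miRNAs that the study named for placebo ZDF against WT sera, all were tested here, 7 were called higher and 2 lower, and 3 were not called. That list was chosen on WT sera that are used again here, so its count is not independent evidence of a direction. MiR-145-5p, a smooth muscle miRNA, was the one of the 3 with the closest treated values, at 2774, 2748, 2435 and 2765 CPM. WT rats held 4513, 3209.8, 3268, 2896 and 2625 CPM, and placebo ZDF rats 10156, 4865, 7275, 3325 and 10920.4 CPM. Treated rats lay near the lower end of WT, with a difference from WT of -0.21 (95% confidence interval -0.88 to 0.47, FDR 0.783). All 4 treated rats were lower than all 5 placebo ZDF rats, on average by 1.38 on the log2 scale (95% confidence interval for the change -2.25 to -0.52), with an FDR of 0.226. MiR-100-5p was at 793, 52.9, 38.2 and 636 CPM against 258 to 2157 CPM in WT (log2 fold change -1.25, FDR 0.576). MiR-218a-5p was at 865, 5.87, 19.1 and 587 CPM against 49.7 to 1015 CPM (0.36, FDR 0.914). For both, the shallow pair was within and the deep pair below the WT range, and without the shallow pair they were at -4.49 (FDR 0.00866) and -4.83 (FDR 0.0349).

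Of the 7 miRNAs that the study named for anti-sclerostin in ZDF sera, 2 were higher and 2 lower than in WT placebo sera, and 3 were not called. This list was chosen on the same treated sera and is likewise not independent. Beside miR-145-5p the uncalled ones were miR-24-3p at 15997, 23630.4, 45341 and 14046 CPM in treated and 8427 to 30070.3 CPM in WT rats (0.55, FDR 0.603), and miR-29b-3p. MiR-29b-3p, which targets collagen transcripts, was at 576, 540.3, 974 and 440.5 CPM against 274, 457, 239.7, 313 and 573 CPM (0.80, 95% confidence interval -0.10 to 1.70, FDR 0.391). None of the 3 tested miR-29 family members was called.

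**Figure D3:**
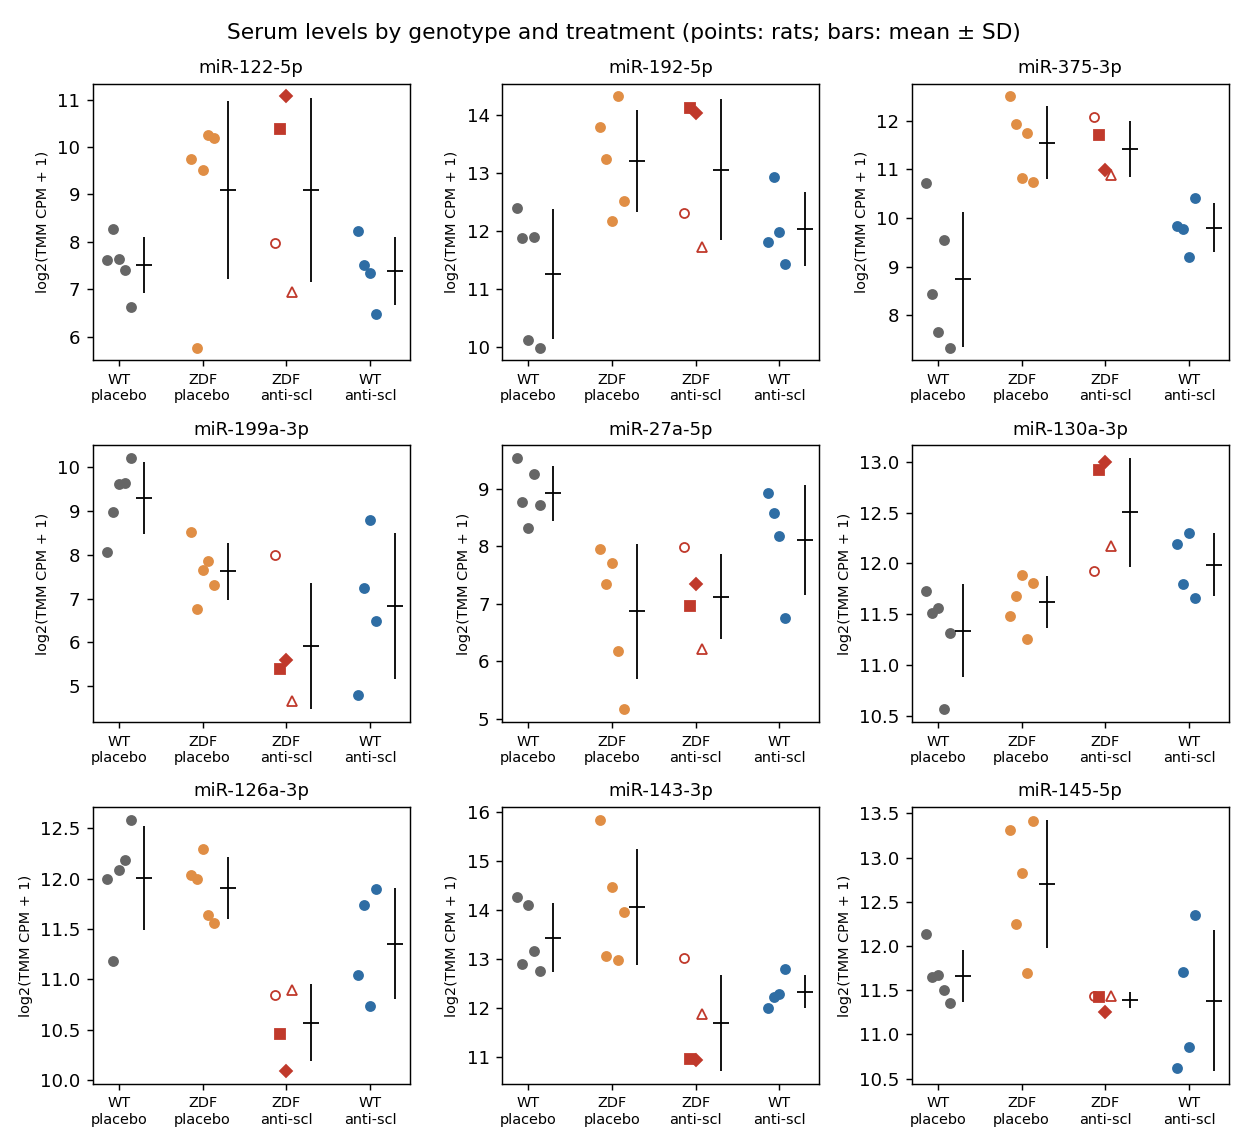
Level of 9 miRNAs, as log2(TMM CPM + 1) on the vertical axes, in WT placebo, ZDF placebo, ZDF anti-sclerostin and WT anti-sclerostin sera, with a point for each rat and the mean ± SD beside it; open symbols are treated ZDF rats with under 40000 miRNA reads. MiR-375-3p is high in both ZDF groups, miR-126a-3p is lower in every treated ZDF rat than in any placebo rat, and miR-145-5p of treated ZDF rats lies at 2435 to 2774 CPM, close to WT.

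With WT rats on the same antibody as the reference, no miRNA passed (0% of 161 tested). MiR-199a-3p, miR-122-3p and miR-10b-5p, called in the main comparison, were too rare to be tested here, so the share does not cover them. The edgeR test gave 11 with an unadjusted p under 0.05, and DESeq2 called 6. MiR-375-3p was at 906, 874, 583 and 1366 CPM in treated WT rats, below all 4 treated ZDF rats, with a log2 fold change of 1.68 between the genotypes (FDR 0.270). MiR-122-5p was at 298, 181, 161 and 88.7 CPM in treated WT rats (2.56, FDR 0.462). MiR-126a-3p was at 2110.1, 3416, 1708 and 3815 CPM there, where the lowest rat fell among the treated ZDF rats (-0.78, FDR 0.863). Anti-sclerostin against placebo in WT rats also gave no call (0% of 171 tested, 18 with an unadjusted p under 0.05 and 5 called by DESeq2). No difference between the genotypes in the response to the antibody was found (0% of 189 tested, 4 with an unadjusted p under 0.05 and 0 called by DESeq2).

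The other treatments place the same miRNAs in a wider range. MiR-375-3p had a median of 1938 CPM in PTH-treated ZDF sera (1091 to 5067) and of 1377 CPM in insulin-treated ones (1091 to 2324), against 2678 CPM in anti-sclerostin-treated ZDF rats. MiR-122-5p had a median of 776 CPM under PTH (411 to 1501) and of 262 CPM under insulin (185 to 532). MiR-126a-3p had a median of 3197 CPM under PTH (2060.1 to 4805) and of 3087 CPM under insulin (2001 to 3542). Every PTH- or insulin-treated ZDF rat lay above the highest anti-sclerostin-treated one, at 1909 CPM.

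Counts over the marker lists describe the other tissues. The median log2 fold change over the 3 tested striated muscle miRNAs was -2.0, with 1 call, miR-1b. MiR-133a-3p stood at 117 to 17006 CPM in treated rats and at 1330 to 38251 CPM in WT (-1.12, FDR 0.728). The summed striated muscle level was 17475, 123, 172 and 5310.2 CPM in treated rats and 1477 to 40049 CPM in WT rats. MiR-206-3p, a miRNA found in skeletal muscle alone, had no read in any treated library. It was too rare to test, so no difference from WT is read from this. The erythrocyte list had no call among 4 tested (median -0.40), with summed levels of 206021, 26872, 26300 and 89368 CPM in treated and 75277 to 251043 CPM in WT rats. MiR-451-5p itself was at 35238, 9707, 8556 and 17252 CPM in treated rats, and at 25146, 13286, 94033, 25854 and 165942 CPM in WT (log2 fold change -1.73, FDR 0.257).

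Over all tested miRNAs 12.5% were called and 4.55% were called lower, and with few members tested in each list a single call is not read as a result about the list. Among the vascular and blood lists, the endothelial one had 1 lower call among 4 tested (median -0.59) and the smooth muscle one 1 lower call among 3 (median -1.22). The leukocyte and platelet list had 1 lower call among 7 (median 0.12). MiR-223-3p, the main granulocyte and platelet miRNA, was at 7674 to 53716 CPM in treated rats and at 9005 to 35287 CPM in WT (0.87, FDR 0.493). The mesenchymal and osteoblast list had 1 higher and 2 lower calls among 8 tested (median -0.72), and the cartilage list none among 2 (median -0.18). The neuronal list had 1 tested member, miR-128-3p, at 0.16. The epithelial median was 0.58 over 6 tested, the median of the miR-29 family 0.51 over 3, and that of the miR-23, miR-27 and miR-24 clusters 0.13 over 7.

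The deep pair was thus low in striated muscle and erythrocyte miRNAs and high in liver miRNAs compared with all WT rats, while the shallow pair was within the WT range in all 3 sums. How far these mixtures account for the called miRNAs was not tested beyond the values with and without each pair and with the hemolysis ratio as a covariate. Without both shallow sera 82 miRNAs were called, 33 higher and 49 lower, of which 20 were among the 22. Without both deep sera 1 was called, miR-150-5p (log2 fold change -2.48, FDR 0.169). Without WT rats 3 and 5 it was 10, of which 9 were among the 22.

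**Figure D4:**
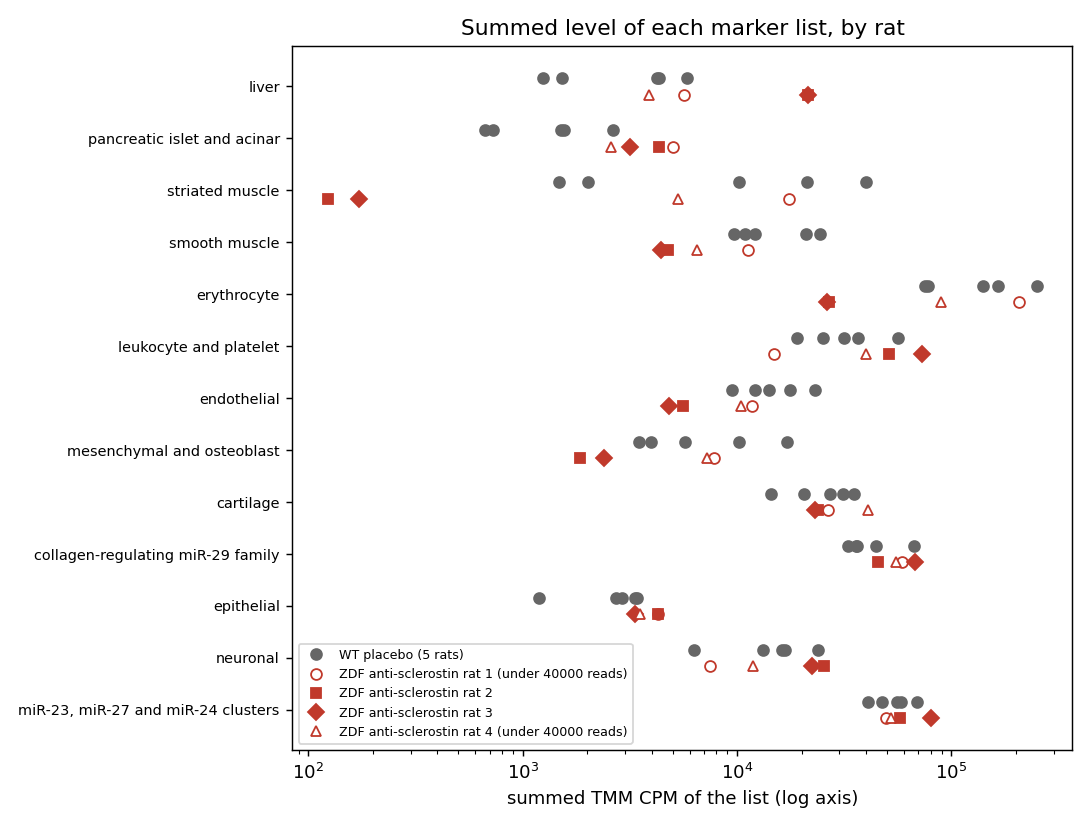
Summed level of each marker list in TMM CPM (log axis), with WT placebo rats as grey points and ZDF anti-sclerostin rats as red symbols, open for rats with under 40000 miRNA reads. The filled symbols of rats 2 and 3 lie above WT for liver and below it for striated muscle, smooth muscle, erythrocyte, endothelial and mesenchymal miRNAs, while the open symbols lie within the WT range for liver, striated muscle and erythrocyte miRNAs.

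The most abundant miRNAs did not separate the groups. MiR-191a-5p was at 75988, 164238, 150588 and 70403 CPM in treated and 59913 to 210165 CPM in WT rats (-0.03, FDR 0.988). MiR-16-5p differed by -0.31 (FDR 0.726) and miR-92a-3p by 0.32 (FDR 0.731). MiR-486, another erythrocyte miRNA, was at 164298, 15709, 16483 and 67466 CPM in treated rats and 47794 to 107001 CPM in WT (0.01, FDR 0.999), with the highest and the 2 lowest values of the 9 sera all in the treated group.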

How the data were processed

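Small RNA was sequenced from serum. Per the study's methods the authors trimmed reads with cutadapt, aligned them to the rat genome (Rnor 6.0) and miRBase using bowtie and miRDeep2, and deposited for each library the counts of reads on 763 mature miRNAs without normalization, beside RPM. The library totals were computed from the deposited RPM (scaled to the library's total reads), and the deposited column scaled to miRNA reads was not used. Synthetic controls were left out of the counts. The 16 bone libraries were not analysed here. Depth was 28015 to 205664 miRNA reads in the 9 libraries, the number that sets the precision of each level; Poisson intervals and floors (3 reads) cover counting error only.

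Groups came from the labels. Counts were tested with edgeR 4.0.16 (R 4.3.3; TMM, filterByExpr, quasi-likelihood test, legacy = TRUE, robust = FALSE) with only the compared groups in the fit, two-sided, Benjamini-Hochberg FDR < 0.2. The study filtered low counts adaptively (independent filtering); this filter, with up to 50 quantiles, is an alternative here, because on simulated null data it gave more false calls. The interaction used 4 groups. Confidence intervals use the residual plus the prior degrees of freedom. Levels are TMM CPM scaled over all 32 sera. Exact permutation tests used log2(CPM + 1). Every pair of libraries within a group differed by more than counting noise. The labels do not name the animals, so p-values measure only the spread between these samples.

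The miRNAs named are the called ones (at most 20 by p), the 2 lists of the study, up to 5 uncalled ones without overlap, members of marker lists, the 5 most abundant, and those with reads in every library of one group and none of the other. The members and lists were chosen with earlier results of these data known. The alternatives were DESeq2 1.42.0, its size factors (RLE) in edgeR, library totals or extraction controls as library size, 2 weaker filters, filterByExpr with independent filtering, legacy = FALSE, robust = TRUE, all 7 serum groups in one fit, FDR < 0.05, the miR-451-5p ratio (pseudocount 0.5) as covariate, and each rat left out in turn. Leaving out pairs of sera (under or over 40000 miRNA reads; a log2 ratio over 3) and thinning to the shallowest library (seed 1) were chosen after seeing the data. The test was checked on simulated data.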

Additional observations from a re-analysis of the deposited data

Results flagged for a closer look

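Within the groups of 4 or 5 rats, 3 of 66 sets of values (a named miRNA in 1 group) held a rat that stood apart by Dixon's criterion at the 95% level, where chance flags about 1 in 20. MiR-378a-3p was at 11458 CPM in WT rat 3 and at 6033 to 6887 CPM in the other WT rats. MiR-1b was at 108 CPM (3 reads) in treated ZDF rat 1 and had no read in the other 3. MiR-145-5p was at 2435 CPM in treated ZDF rat 3 and at 2748 to 2774 CPM in the others, a small gap in a tight group. A criterion for a single rat standing apart does not describe the split between rats 1 and 4 and rats 2 and 3.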

How the results depend on the processing

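The comparison of anti-sclerostin-treated ZDF with placebo WT sera gave 22 calls. It gave 0 with extraction controls as library size, 34 with no filter, 39 with a minimum of 1 read and independent filtering, 10 with the miR-451-5p ratio as covariate, 0 at FDR < 0.05, and 0 to 34 when 1 rat was left out. Among the settings chosen after seeing the data, it gave 82 without both shallow treated sera, 1 without both deep ones, 10 without WT rats 3 and 5, and 14 after thinning, which left 113 tested. Library totals gave 33, of which 11 were among the 22, and the remaining settings gave 21 to 31. Of the 22 called miRNAs, miR-122-5p (-0.20) and miR-31a-5p (-0.13) turned, both without the deep sera. Of the uncalled ones, miR-218a-5p turned to -4.83 and miR-486 to -2.22 without the shallow sera, and miR-486 to -1.52 with library totals. The causes were not tested. Depth limits the shallow treated sera most, where 3 reads are 108 CPM in rat 1. No paired analysis applied, because the compared groups are different rats.

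For placebo ZDF against placebo WT (10 calls), the count was 106 with library totals, 37 with extraction controls, 33 with no filter, 37 with 1 read and independent filtering, 6 at FDR < 0.05 and 8 to 17 without 1 rat, and miR-486 turned to -0.72 with library totals. For treated against placebo ZDF (2 calls), it was 7 with DESeq2 size factors, 0 with library totals, extraction controls, the covariate or FDR < 0.05, 11 with DESeq2, 12 with no filter, 24 with 1 read and independent filtering, 7 with filterByExpr and independent filtering, 8 with legacy = FALSE, 0 to 22 without 1 rat, 97 without the shallow and 17 without the deep sera. There miR-122-3p (-2.22) and miR-192-5p (-1.37) turned without the deep sera. For treated ZDF against treated WT (0 calls), it was 6 with DESeq2, 7 with no filter, 12 with 1 read and independent filtering, 1 with filterByExpr and independent filtering, all groups or the covariate, 47 without the shallow and 5 without the deep sera. There miR-218a-5p (-3.80) and miR-486 (-1.95) turned without the shallow sera. For the antibody in WT rats (0 calls), it was 2 with library totals, 15 with extraction controls, 5 with DESeq2, 11 with no filter, 17 with 1 read and independent filtering, 4 with filterByExpr and independent filtering, 3 with legacy = FALSE, 4 with robust = TRUE and 0 to 9 without 1 rat. For the interaction (0 calls), it was 2 with no filter, 3 with 1 read and independent filtering, 1 without the shallow and 2 without the deep sera.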
